A study of Mus musculus with 4 samples.

Results

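Hepcidin and the genes by which the liver takes up, stores and releases iron were compared between the livers of control and ADAR2-deficient mice on a high-fat diet (HFD). The 10 genes were chosen by name and are the hormone genes Hamp and Hamp2, the ligand Bmp6, transferrin (Trf) and its receptors Tfrc and Tfr2, the importer Slc39a14, the exporter Slc40a1, and the ferritin chains Fth1 and Ftl1. All 10 were found among the 25655 genes of the deposited table, and all 10 were among the 12967 genes that passed the filter on low counts. The control group, HFD-WT, was ADAR2+/+/GluR-B R/R, and the group without ADAR2, HFD-KO, was ADAR2-/-/GluR-B R/R. Male mice on a B6129S background started the diet when 5 weeks old and stayed on it for 12 weeks. The knockout is not limited to the liver. Every animal, controls included, carried the GluR-B R/R allele, the edited form that rescues mice lacking ADAR2 from early death. Whole liver was sequenced in 2 libraries per group, so signals from all liver cell types are mixed. The study gives more mice per group for its enrichment analysis of these livers than there are libraries, but how mice were assigned to libraries is not given in the sources used here, and p-values measure only the spread between these libraries.

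Iron leaves cells through ferroportin, the product of Slc40a1, and hepcidin, a peptide made by hepatocytes, closes this exit by binding ferroportin and sending it for degradation. Hepatocytes raise hepcidin when iron-laden transferrin or BMP6 from sinusoidal endothelial cells signals through BMP receptors and SMAD proteins, and interleukin signalling through STAT3 raises it during inflammation. Iron that has entered the cell is held in ferritin, a shell of heavy and light chains, and iron regulatory proteins adjust ferritin, ferroportin and transferrin receptor mRNAs by binding hairpins called iron-responsive elements.

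The libraries held between 24480798 and 28691330 counted reads. A count of 3, taken as the detection floor, equals 0.105 to 0.123 CPM (counts scaled to a common library size), and covers counting error only. Adarb1, the gene for ADAR2, had 15.7 and 19.8 CPM in HFD-WT against 6.23 and 9.55 CPM in HFD-KO livers, so both knockout libraries lay below the controls but still held reads of it (-1.17 ± 0.20 on the log2 scale, edgeR adjusted p = 0.159). All 6 hepatocyte markers, led in CPM by Alb and Apoa1, were detected, and they summed to between 72601 and 87320 CPM. CPM values use the TMM-adjusted library size. Levels of different genes are compared as the authors' TPM, which divides by gene length. Exceptions are shares of counts and the order of markers within a list by CPM, which are not corrected for length. Fold changes are HFD-KO against HFD-WT from the quasi-likelihood test of edgeR, their error after ± on the log2 scale is the standard error, and p-values are adjusted by Benjamini-Hochberg over all genes tested.

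None of the iron genes passed the test for a difference between genotypes. At an adjusted p under 0.05, 0 of 10 passed by edgeR, where 0.0771% of all genes tested did, and 0 of 10 passed by DESeq2's Wald test, where 0.676% of all genes did. At an unadjusted p under 0.05, again 0 of 10 passed by edgeR, against 8.98% of all genes tested. The median log2 fold change of the 10 genes was 0.003, beside 0.007 over all genes tested, with 6 genes above 0 and 4 below. In 8 of the 10 genes the HFD-KO values overlapped the HFD-WT values, while Tfr2 lay higher and Fth1 lower in both HFD-KO libraries. Groups without overlap were found for 40.8% of all genes tested. With 2 libraries against 2, an exact permutation test of 1 gene cannot give a p below 0.333.

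**Figure D1:**
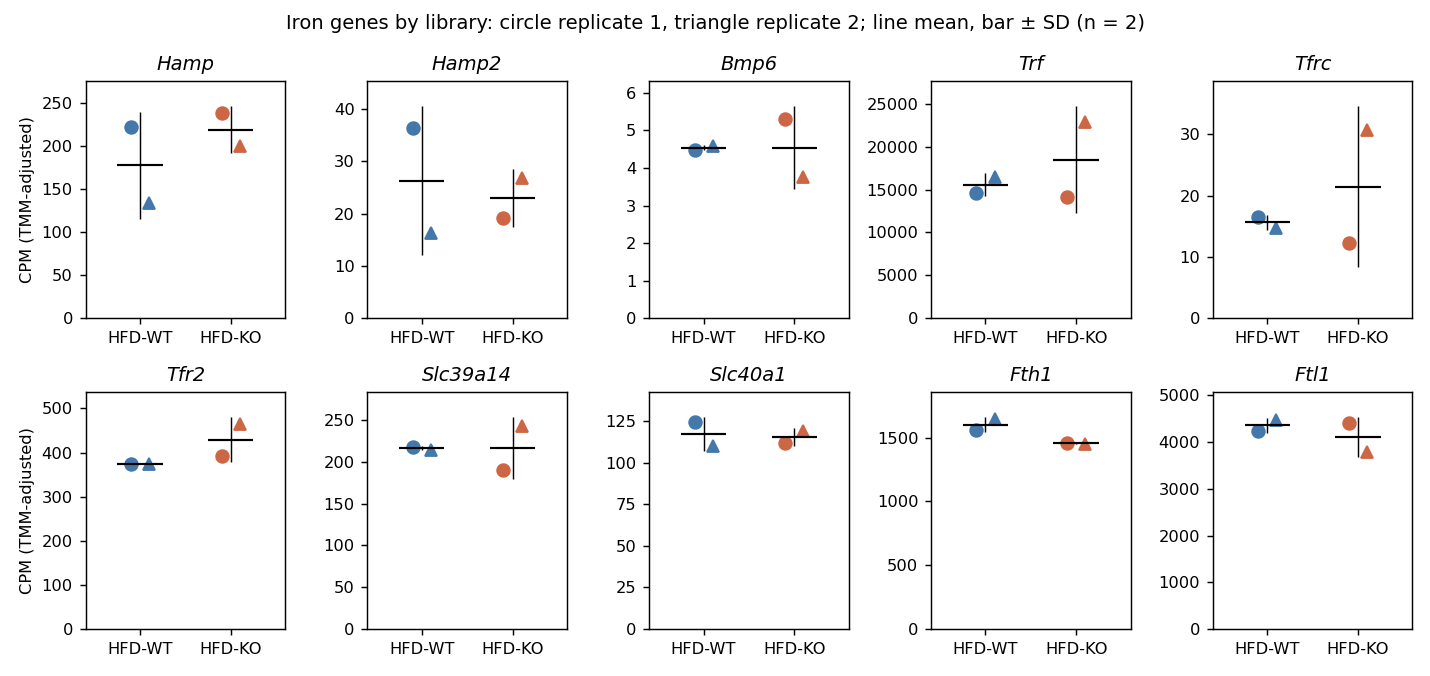
CPM of the 10 iron genes in each library, with circles for replicate 1, triangles for replicate 2, a line at the group mean and a bar of ± SD (n = 2), and with each panel on its own linear axis from 0. Hamp and Hamp2 were spread most between the HFD-WT libraries, and Tfrc and Trf between the HFD-KO libraries.

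The iron genes spanned a wide range of expression. Per length, Trf was the highest, with 9370 to 15629 TPM, and it ranked between place 7 and place 18 of all genes in the 4 libraries. Ftl1 followed with 7516 to 9229 TPM, below Trf in every library, and then Fth1 with 1714 to 2073 TPM and Hamp with 666.7 to 1108 TPM. Tfr2 had 212.9 to 260.0 TPM. The ranges of Hamp2 (56.9 to 124.1 TPM), Slc39a14 (64.7 to 84.8 TPM) and Slc40a1 (61.5 to 71.4 TPM) overlapped. Within each library Slc39a14 exceeded Slc40a1, by 1.05 to 1.26 times, while the place of Hamp2 beside them varied. Tfrc, with 4.39 to 11.3 TPM, and Bmp6, with 2.01 to 2.76 TPM, were the lowest. Together the 10 genes held 2.08% to 2.85% of all counts of a library, and Trf alone held 67.3% to 78.3% of that share.

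Hamp encodes hepcidin and lies on the minus strand of chromosome 7 from 30641793 to 30643457 (GRCm39). HFD-WT livers had 222.2 and 134.0 CPM, and HFD-KO livers had 238.6 and 200.3 CPM. One HFD-WT library was low and the other lay between both HFD-KO values. The group means were 178.1 ± 62.4 CPM (SD, n = 2) and 219.4 ± 27.1 CPM, a fold change of 1.23 with a 95% interval from 0.869 to 1.75 (0.30 ± 0.22 on the log2 scale, edgeR adjusted p = 0.720). Between the HFD-WT libraries Hamp differed 1.66-fold, and 1.62% of the 11759 genes with a mean of at least 1 CPM and a count in every library differed more there. Without HFD-WT replicate 2, the low library, the log2 fold change was -0.02, and without HFD-WT replicate 1 it was 0.71 (adjusted p = 0.351 by edgeR).

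Hamp2 is the neighbouring hepcidin copy of the mouse, on chromosome 7 from 30621797 to 30624106. It had 36.4 and 16.2 CPM in HFD-WT and 19.1 and 26.9 CPM in HFD-KO livers. Both HFD-KO values lay inside the HFD-WT range, which was 2.24-fold wide. The fold change was 0.872 with a 95% interval from 0.506 to 1.5 (-0.20 ± 0.34 on the log2 scale, edgeR adjusted p = 0.895). The log2 fold change was 0.49 without HFD-WT replicate 1 and -0.66 without HFD-WT replicate 2. Hamp and Hamp2 shared the order of the HFD-WT libraries and had opposite orders in the HFD-KO libraries. Per length, Hamp exceeded Hamp2 by 8.69 and 11.7 times in HFD-WT and by 17.7 and 10.6 times in HFD-KO livers. Their annotated transcripts (GENCODE M21) are 92.4% identical, but the longest stretch they share is 87 bases, and 0 of the 311 windows of 100 bases in the Hamp transcript occur in Hamp2. A whole read of the length sequenced could therefore be assigned to 1 of the genes, though how the authors treated reads that fit both is not given in the sources used here. With the counts of both genes summed, the log2 fold change was 0.25 (edgeR adjusted p = 0.787).

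The upstream sequences of the hepcidin genes are shown because they hold letters known as targets of both inputs named above and differ in 1 of these motifs. The 250 bases before each RefSeq start are given 5′ to 3′ on the gene's strand, from GRCm38.p6 at chr7:30944030-30944279 for Hamp and at chr7:30924182-30924431 for Hamp2, both on the minus strand. Capitals mark the letters of a BMP-responsive element, GGCGCC, and of a STAT site, TTCNNNGAA, and in Hamp2 the aligned bases.
Hamp: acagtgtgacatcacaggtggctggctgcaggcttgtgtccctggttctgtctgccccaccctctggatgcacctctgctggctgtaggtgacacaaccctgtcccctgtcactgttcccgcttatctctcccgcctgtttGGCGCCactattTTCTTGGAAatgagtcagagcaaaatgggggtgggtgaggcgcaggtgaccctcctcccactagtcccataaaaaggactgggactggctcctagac
Hamp2: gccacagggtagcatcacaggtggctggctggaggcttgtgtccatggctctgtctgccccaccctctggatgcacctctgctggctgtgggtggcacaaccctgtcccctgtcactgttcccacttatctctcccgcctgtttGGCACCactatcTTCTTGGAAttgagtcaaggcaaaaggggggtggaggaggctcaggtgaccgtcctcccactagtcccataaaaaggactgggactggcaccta
Over this window the sequences are 89.7% identical. The element GGCGCC lies 109 to 104 bases before the start in Hamp. In Hamp2 the aligned bases read GGCACC, the substitution G4A counted from the element's left end with the Hamp base given before the position. The STAT site, TTCTTGGAA in both genes, lies 97 to 89 bases before the start in Hamp and 94 to 86 in Hamp2. GGCGCC was present in the same 250 bases of 9.59% of 32851 promoters, and TTCNNNGAA in 7.02%. Both motifs read the same on either strand. Promoter sequences were matched for 7 of the 10 iron genes, and of the 5 besides the hepcidin genes Tfrc also held GGCGCC, 89 to 84 bases before 1 of its starts. Trf, Slc39a14 and Slc40a1 had no entry. A match of letters is a description and not a measured binding site.

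Bmp6, on chromosome 13 from 38529083 to 38684278, encodes the main BMP ligand that reports liver iron to hepatocytes. It was counted at 4.49 and 4.58 CPM in HFD-WT and at 5.32 and 3.77 CPM in HFD-KO livers, from 90 to 140 reads per library. The HFD-KO values lay on either side of the HFD-WT pair. The fold change was 1.0 with a 95% interval from 0.712 to 1.42 (0.01 ± 0.21 on the log2 scale, edgeR adjusted p = 0.995).

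Trf encodes transferrin, the iron carrier of plasma, and lies on chromosome 9 from 103081200 to 103107643. It was counted at 14638 and 16521 CPM in HFD-WT and 14086 and 22870 CPM in HFD-KO livers. HFD-KO replicate 2 was the high library, and HFD-KO replicate 1 was the lowest of the 4. The fold change was 1.19 with a 95% interval from 0.809 to 1.74 (0.25 ± 0.24 on the log2 scale, edgeR adjusted p = 0.8). Within HFD-KO the libraries differed 1.62-fold, a difference that 4.41% of the 11759 genes exceeded.

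Tfrc encodes transferrin receptor 1, through which most cells take up iron, and lies on chromosome 16 from 32427738 to 32451612. It had 16.5 and 14.7 CPM in HFD-WT and 12.2 and 30.7 CPM in HFD-KO livers. The HFD-KO values enclosed the HFD-WT values, with replicate 2 far above the other libraries. The 2.51-fold difference between the HFD-KO libraries was exceeded by 0.859% of the 11759 genes. The fold change between groups was 1.37 with a 95% interval from 0.768 to 2.44 (0.45 ± 0.36 on the log2 scale, edgeR adjusted p = 0.748). Its sign depended on the HFD-KO library used, with a log2 fold change of 0.97 without replicate 1 (adjusted p = 1.05e-06 by edgeR) and -0.35 without replicate 2 (adjusted p = 0.263).

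Tfr2 encodes transferrin receptor 2, which senses iron-laden transferrin on hepatocytes, and lies on chromosome 5 from 137568102 to 137585743. Its values were 374.5 and 374.7 CPM in HFD-WT and 392.9 and 465.3 CPM in HFD-KO livers. Both HFD-KO values were above both HFD-WT values, an order found for 20.5% of all genes tested. The fold change of 1.15 had a 95% interval from 0.968 to 1.36 and did not pass the test (0.20 ± 0.10 on the log2 scale, edgeR adjusted p = 0.639). Per length, Tfr2 exceeded Tfrc by 34.3 and 38.5 times in HFD-WT and by 48.6 and 22.9 times in HFD-KO livers.

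Without HFD-KO replicate 1, Trf (log2 fold change 0.56, adjusted p = 4.82e-05), Tfrc and Tfr2 (log2 fold change 0.31, adjusted p = 0.0406) were called higher by edgeR, 3 of the 10 genes. In that fit 2.83% of all genes tested were called higher at an adjusted p under 0.05, and the single HFD-KO library left was assumed to vary like the HFD-WT libraries. Without HFD-KO replicate 2, the log2 fold change was -0.15 for Trf, -0.355 for Tfrc and 0.07 for Tfr2, and 0.42 for Hamp and -0.46 for Hamp2. The 3 calls therefore rested on HFD-KO replicate 2.

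**Figure D2:**
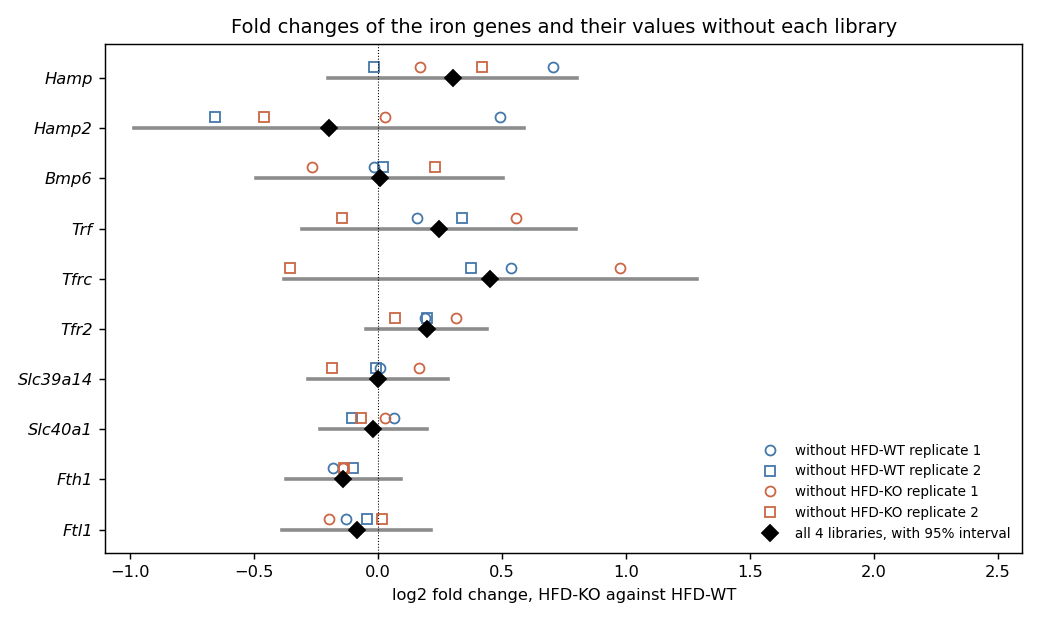
Log2 fold change of each iron gene, HFD-KO against HFD-WT, with all 4 libraries (diamond, grey bar the 95% interval by edgeR) and after leaving out each library in turn (open symbols). All 10 intervals include 0, and the values of Hamp, Hamp2, Trf and Tfrc shift most with the library left out.

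Slc39a14 encodes ZIP14, which imports iron that is not bound to transferrin, and lies on chromosome 14 from 70540918 to 70588874. It had 217.8 and 214.4 CPM in HFD-WT and 190.0 and 242.4 CPM in HFD-KO livers. The HFD-KO values lay on either side of the HFD-WT pair, with means of 216.1 ± 2.4 CPM (SD, n = 2) for HFD-WT and 216.2 ± 37.1 CPM for HFD-KO. The 95% interval of the fold change ran from 0.823 to 1.22 (adjusted p = 0.999 by edgeR).

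Slc40a1 encodes ferroportin and lies on chromosome 1 from 45947228 to 45965683. Its values were 124.4 and 109.9 CPM in HFD-WT and 111.8 and 119.3 CPM in HFD-KO livers. The HFD-KO values fell inside the HFD-WT range, and the fold change was 0.986 with a 95% interval from 0.850 to 1.15 (-0.02 ± 0.09 on the log2 scale, edgeR adjusted p = 0.971). Ferroportin is made by hepatocytes and also, at high levels, by Kupffer cells, the macrophages of the liver. The summed markers of macrophages and Kupffer cells were lower in HFD-KO livers, at 540.9 and 672.3 CPM in HFD-WT against 455.9 and 413.9 CPM in HFD-KO. By log2 fold change, 11 of the 12 markers were lower and 1 was higher. Of these 12 markers, all of them detected, 9 were lower at an unadjusted p under 0.05, where 4.73% of all genes tested were, and 0 had an adjusted p under 0.05 by edgeR. Their part in the Slc40a1 values was not tested, and in whole liver fewer cells of a type and less RNA per cell cannot be told apart.

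Ferritin heavy chain (Fth1, chromosome 19 from 9957962 to 9962462) carries the ferroxidase site that loads iron into the shell. It had 1562 and 1644 CPM in HFD-WT and 1456 and 1454 CPM in HFD-KO livers. Both HFD-KO values were below both HFD-WT values, an order shared by 20.3% of all genes tested. The fold change of 0.908 had a 95% interval from 0.773 to 1.07 and did not pass the test (-0.14 ± 0.10 on the log2 scale, edgeR adjusted p = 0.719). Fth1 kept a negative log2 fold change, between -0.19 and -0.10, in all 9 alternatives tried.

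Ferritin light chain (Ftl1, chromosome 7 from 45107368 to 45109308) is the other chain of the shell and has no ferroxidase site. It had 4241 and 4474 CPM in HFD-WT and 4409 and 3799 CPM in HFD-KO livers. HFD-KO replicate 2 was the low library, while replicate 1 lay within the HFD-WT range. The fold change was 0.942 with a 95% interval from 0.765 to 1.16 (-0.09 ± 0.13 on the log2 scale, edgeR adjusted p = 0.879). Per length, light chain exceeded heavy chain by 4.44 and 4.45 times in HFD-WT and by 4.95 and 4.27 times in HFD-KO livers. The copy Ftl1-ps1 held 0.454% as many reads as Ftl1, and summing both gave the same log2 fold change of -0.09. How reads shared with other ferritin copies were counted is not given in the sources used here, so the ferritin values are uncertain to that extent.

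HFD-KO replicate 2 was the library with the highest Trf, Tfrc, Tfr2 and Slc39a14 and with the lowest Fth1 (by 2 CPM), Ftl1 and Bmp6. Thus 4 of the 10 genes were highest there, beside 29.3% of all genes tested, and 3 were lowest, beside 29.2%. Tfrc, ferritin and ferroportin mRNAs carry the iron-responsive elements described above, and the hairpins are printed because these are the members whose mRNAs iron regulatory proteins bind. Sites were searched in GENCODE M21 transcripts as a C, 5 bases, the loop CAGTGN and 5 bases that can pair with the first 5, G with U included. Capitals mark the CAGTG of the loop, and T stands for U.
Fth1, 5′ UTR bases 88 to 114: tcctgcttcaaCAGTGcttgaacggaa
Ftl1, 5′ UTR bases 79 to 105: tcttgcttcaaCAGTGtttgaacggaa
Slc40a1, 5′ UTR bases 91 to 117: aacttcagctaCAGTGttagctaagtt
Tfrc, 3′ UTR bases 887 to 913: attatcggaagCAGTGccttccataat
Tfrc, 3′ UTR bases 1266 to 1292: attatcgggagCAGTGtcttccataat
Tfrc, 3′ UTR bases 1331 to 1357: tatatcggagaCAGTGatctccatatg
Tfrc, 3′ UTR bases 1378 to 1404: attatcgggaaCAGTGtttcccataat
The site was found in the 5′ UTR of 0.137% and in the 3′ UTR of 0.585% of 21877 protein-coding genes, and the other iron genes had none by this search. In the 5′ UTR the element governs translation, which read counts do not measure, and in the 3′ UTR it governs the stability of the mRNA. The part of the elements in the Tfrc counts was not tested. The counts do not show whether the elements were bound.

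The rest of the pathway was described from a list of 67 genes, of which 62 passed the filter on low counts. At an adjusted p under 0.05, 0 of the 62 passed by edgeR. At an unadjusted p under 0.05, 3 were higher and 3 were lower, 6 of 62 genes, beside 4.25% higher and 4.73% lower over all genes tested. The median log2 fold change of the 62 was -0.01, beside 0.007 over all genes tested. Of the 6 genes, Atoh8 and Id2 were listed as BMP targets, Slc39a8, Slc11a1 and Steap4 under uptake, and Ncoa4 under storage and sensing. None passed the adjustment with all 4 libraries. Without HFD-KO replicate 1, where 5.31% of all genes tested were called at an adjusted p under 0.05 by edgeR, Atoh8 (adjusted p = 0.000581), Slc11a1 (adjusted p = 0.0141) and Id2 (adjusted p = 0.0406) passed it. Without HFD-KO replicate 2, where 3.08% were called, Steap4 did (adjusted p = 0.000212).

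**Figure D3:**
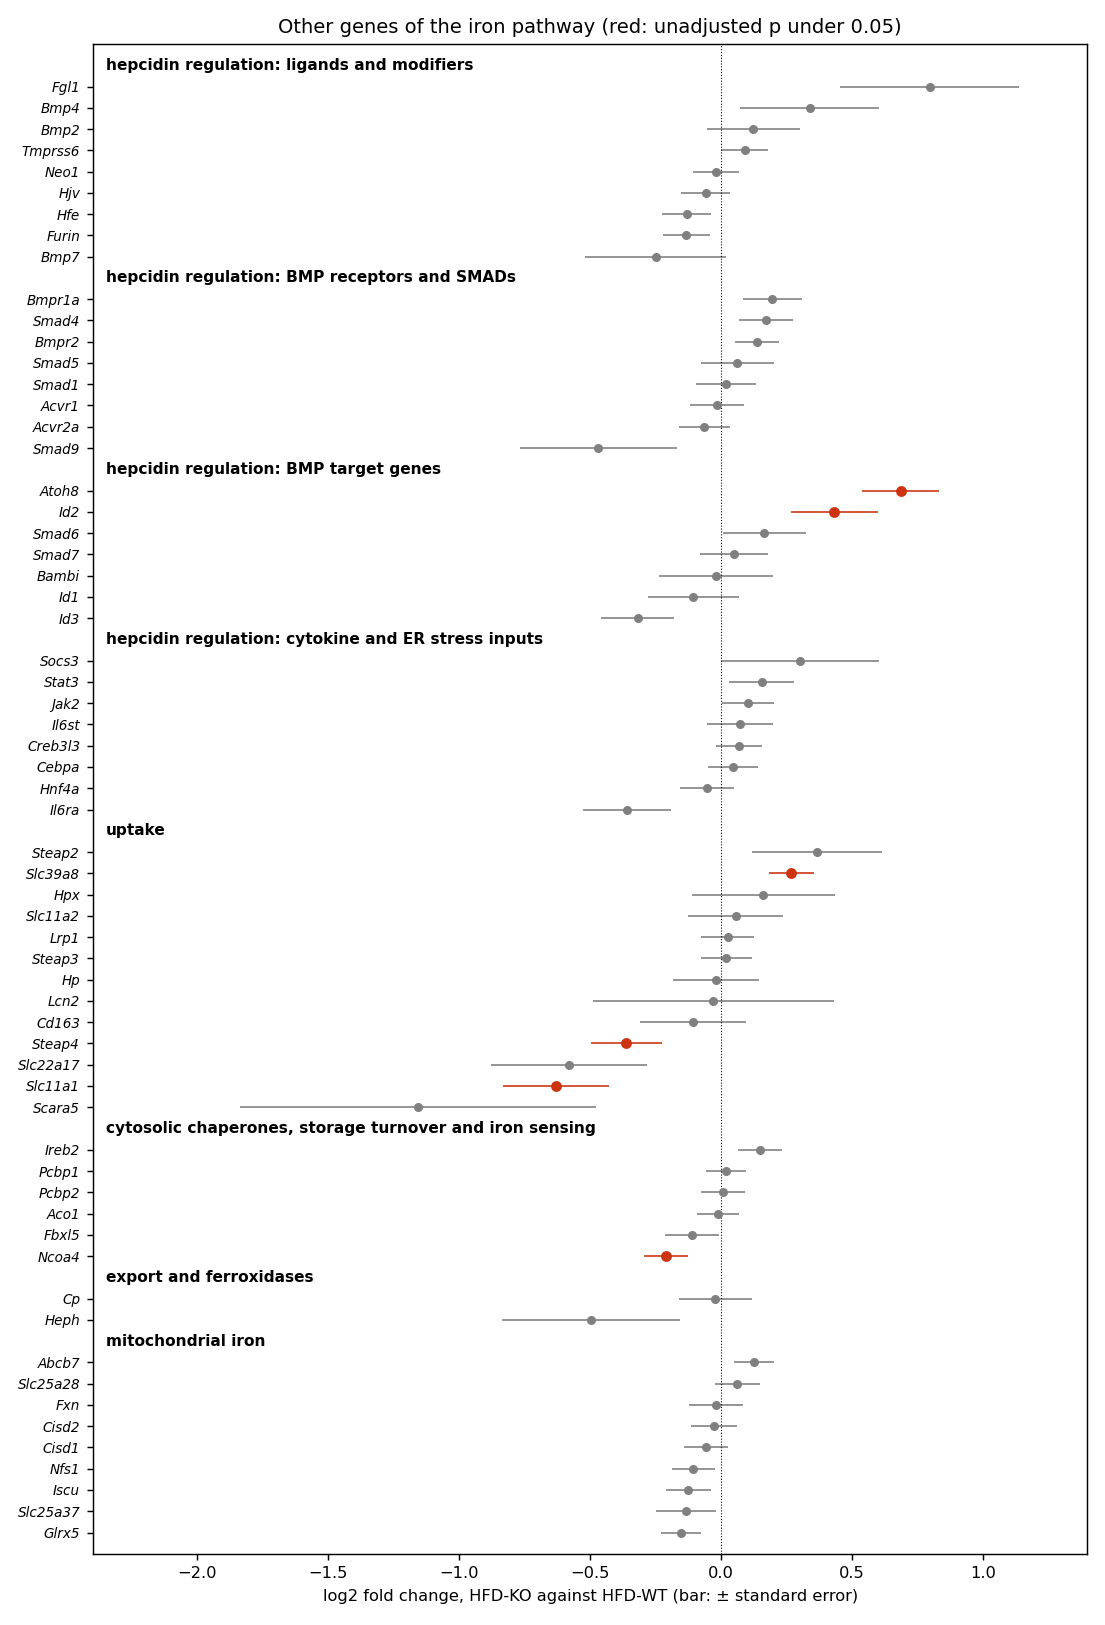
Log2 fold change of the 62 other genes of the iron pathway, HFD-KO against HFD-WT, in 8 groups by role, with bars of ± standard error from edgeR. The 6 genes with an unadjusted p under 0.05 are red, and most of the others lie close to 0.

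Among 7 target genes of BMP signalling, which serve as a readout beside hepcidin, 2 were higher at an unadjusted p under 0.05, Atoh8 and Id2. Over all genes tested, 4.25% were higher at that threshold by edgeR. Atoh8, a transcription factor gene that BMP signalling and iron induce in liver, had 13.6 and 10.2 CPM in HFD-WT and 17.9 and 20.4 CPM in HFD-KO livers. Both HFD-KO values were above both HFD-WT values, an order found for 20.5% of all genes tested. The fold change of Atoh8 was 1.61 with a 95% interval from 1.27 to 2.04 (0.69 ± 0.15 on the log2 scale, edgeR unadjusted p = 0.00209 and adjusted p = 0.233). Its log2 fold change stayed between 0.50 and 0.90 with an unadjusted p under 0.05 in all 9 alternatives. Id2, an inhibitor of DNA binding, had 97.9 and 66.2 CPM in HFD-WT and 110.7 and 110.9 CPM in HFD-KO livers (0.43 ± 0.17 on the log2 scale, edgeR adjusted p = 0.507). The Id2 value was 0.18 without HFD-WT replicate 2, where its unadjusted p was no longer under 0.05, and 0.74 without HFD-WT replicate 1.

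The other 5 targets did not pass at an unadjusted p under 0.05. Id3 had 36.5 and 26.9 CPM in HFD-WT and 25.1 and 25.8 CPM in HFD-KO livers (-0.32 on the log2 scale, edgeR adjusted p = 0.566). Id1, the target most often read beside hepcidin, had a log2 fold change of -0.11 (standard error 0.17), and the inhibitory SMAD genes Smad6 and Smad7 had 0.17 (standard error 0.16) and 0.05 (standard error 0.13). Of the 8 BMP receptor and SMAD genes 0 had an unadjusted p under 0.05, with Smad4 at a log2 fold change of 0.17 and the receptor gene Bmpr1a at 0.20.

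Of the 9 tested ligands and modifiers of hepcidin control 0 had an unadjusted p under 0.05. Tmprss6, which encodes the protease that cuts hemojuvelin and so restrains hepcidin, had 452.1 and 492.2 CPM in HFD-WT and 494.2 and 511.2 CPM in HFD-KO livers (0.09 on the log2 scale, edgeR adjusted p = 0.807). Hemojuvelin (Hjv), the BMP co-receptor, and Hfe, which partners the transferrin receptors, had log2 fold changes of -0.06 and -0.13. Fgl1, which encodes a secreted hepatocyte protein that binds BMP6 and lowers hepcidin, had 254.0 and 214.3 CPM in HFD-WT and 240.4 and 573.3 CPM in HFD-KO livers. It was high in HFD-KO replicate 2 and within the HFD-WT range in replicate 1 (0.80 ± 0.34 on the log2 scale, edgeR adjusted p = 0.556). Erfe, the erythroid hormone that lowers hepcidin, had 3 reads in HFD-KO replicate 2 (0.126 CPM), at the floor, and 0 reads in each of the other libraries.

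Of 13 tested uptake genes, Slc39a8 was higher, and Slc11a1 and Steap4 were lower, at an unadjusted p under 0.05. Over all genes tested, 4.25% were higher and 4.73% were lower at that threshold by edgeR. Slc39a8, which encodes the ZIP8 importer, had 19.5 and 19.8 CPM in HFD-WT and 22.9 and 24.4 CPM in HFD-KO livers (0.27 ± 0.09 on the log2 scale, edgeR adjusted p = 0.421). Steap4, a metalloreductase gene, had 165.9 and 162.0 CPM in HFD-WT and 108.9 and 146.4 CPM in HFD-KO livers (-0.36 ± 0.14 on the log2 scale, edgeR adjusted p = 0.496). Slc11a1 encodes NRAMP1, which moves iron out of the phagosomes of macrophages. It had 7.56 and 10.6 CPM in HFD-WT and 6.53 and 5.15 CPM in HFD-KO livers (-0.63 ± 0.20 on the log2 scale, edgeR adjusted p = 0.437). The summed macrophage markers given above were lower in the same libraries. Their part in the Slc11a1 values was not tested. All 3 genes kept their sign in the 9 alternatives, but an unadjusted p under 0.05 was lost by Slc39a8 in 4 of them (by DESeq2 and without HFD-WT replicate 1, HFD-WT replicate 2 or HFD-KO replicate 2), by Steap4 in 3 (without HFD-WT replicate 1, HFD-WT replicate 2 or HFD-KO replicate 1) and by Slc11a1 without HFD-WT replicate 2. Log2 fold changes ran from 0.22 to 0.32 for Slc39a8, from -0.59 to -0.16 for Steap4 and from -0.86 to -0.37 for Slc11a1.

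The scavengers of free hemoglobin and heme were the highest of the uptake genes. Haptoglobin (Hp) had 5412 and 5142 CPM in HFD-WT and 4411 and 6008 CPM in HFD-KO livers, and hemopexin (Hpx) had 4849 and 5012 CPM against 3763 and 7273 CPM. In both genes the HFD-KO values enclosed the HFD-WT values, with replicate 2 the highest library and replicate 1 the lowest. Lcn2, the siderophore-binding lipocalin, showed the same order, with 102.5 and 104.4 CPM in HFD-WT and 45.3 and 157.7 CPM in HFD-KO livers.

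In storage and sensing, Ncoa4 alone of 6 genes had an unadjusted p under 0.05 and was lower, as were 4.73% of all genes tested. It encodes the receptor that delivers ferritin to autophagosomes, and had 181.8 and 186.1 CPM in HFD-WT and 166.5 and 151.7 CPM in HFD-KO livers (-0.21 ± 0.08 on the log2 scale, edgeR adjusted p = 0.527). Its value ran from -0.28 to -0.14 in the 9 alternatives, and its unadjusted p was not under 0.05 in 4 of them, with the replicate block and without HFD-WT replicate 1, HFD-WT replicate 2 or HFD-KO replicate 2. The iron chaperone gene Pcbp1 and the iron regulatory protein gene Aco1 had log2 fold changes of 0.02 and -0.01, with standard errors of 0.08 each. The plasma ferroxidase gene Cp had 1138 and 1073 CPM in HFD-WT and 941.2 and 1236 CPM in HFD-KO livers (-0.02 on the log2 scale, edgeR adjusted p = 0.977), and its relative Heph, at 1.05 to 1.85 CPM, had -0.50 (standard error 0.34).

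Of 9 tested genes of mitochondrial iron 0 had an unadjusted p under 0.05, with Cisd1 at a log2 fold change of -0.06 and the iron-sulfur scaffold gene Iscu at -0.12. Of 8 tested cytokine and stress inputs to hepcidin 0 had one either, with Creb3l3 at 0.07 and Cebpa at 0.04, and Il6 itself was below the floor in every library.

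The libraries that differed most in iron genes also differed in other gene groups. In the acute phase response, interleukin signalling through STAT3 also raises hepcidin. The 13 genes listed for this response summed to 11795 and 10822 CPM in HFD-WT and to 10786 and 17010 CPM in HFD-KO livers. Of these genes 11 were highest in HFD-KO replicate 2, with Fga at 3259 and 2821 CPM against 3015 and 4583 CPM and Fgb at 2824 and 2444 CPM against 2650 and 4136 CPM. Hamp had 200.3 CPM in that library and was highest in HFD-KO replicate 1, with 238.6 CPM. The part of this response in the Hamp values was not tested. Of the 13, 1 gene had an unadjusted p under 0.05 (Crp, higher), where 4.25% of all genes tested were higher, and 0 an adjusted p under 0.05 by edgeR.

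The 6 erythroid genes, a gauge of blood in the tissue, summed to 757.6 and 601.2 CPM in HFD-WT and to 811 and 1147 CPM in HFD-KO livers, and all 6 were highest in HFD-KO replicate 2. The alpha-globin gene Hba-a2 had 244.2 and 184.4 CPM against 261.2 and 348.7 CPM, and the beta-globin gene Hbb-bs had 221.9 and 175.9 CPM against 241.3 and 371.3 CPM. Of the 6, all tested, 3 were higher at an unadjusted p under 0.05, where 4.25% of all genes tested were. The part of blood RNA and of the acute phase genes in the Trf and Tfrc values was not tested.

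The 10 sinusoidal endothelial markers stand for the cells that make Bmp6. They summed to 371.1 and 418.0 CPM in HFD-WT and to 371.9 and 372.2 CPM in HFD-KO livers. By edgeR 1 of 10 was lower at an unadjusted p under 0.05, where 4.73% of all genes tested were, and 0 had an adjusted p under 0.05. Stab2 and Stab1 had the most CPM of this list, a scale that is not corrected for length. The 7 stellate cell markers, led in CPM by Dcn and Ecm1, summed to 452.5 and 508.8 CPM against 419.9 and 350.5 CPM. Of these, 3 of 7 were lower at an unadjusted p under 0.05, beside the same 4.73%, and 0 had an adjusted p under 0.05 by edgeR. The 6 cholangiocyte markers summed to 50.2 to 90.6 CPM over the 4 libraries, most of it from Spp1 and the rest led in CPM by Sox9, and the 6 B and plasma cell markers summed to 122.3 CPM in HFD-KO replicate 1 and to 15.2 to 18.1 CPM in the others, led in CPM by Ighm and Igkc. Among the macrophage markers Mpeg1 and Cd5l had the most CPM, with Cd5l at 88.1 and 116.6 CPM in HFD-WT and 65.5 and 67.7 CPM in HFD-KO livers.

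**Figure D4:**
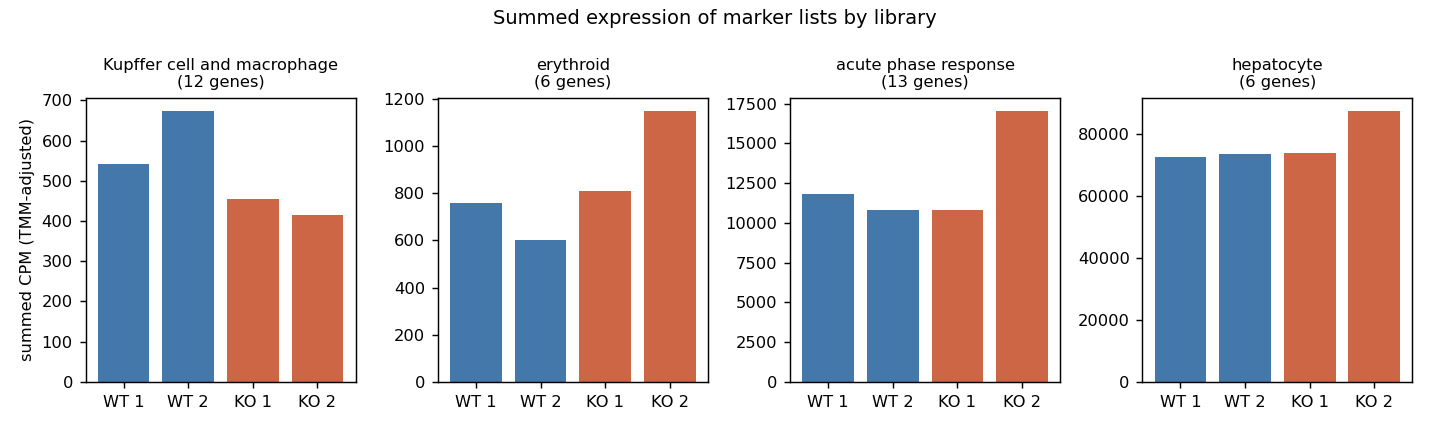
Summed CPM of 4 marker lists in each library, as bars from 0 in blue for HFD-WT and orange for HFD-KO. The erythroid, acute phase and hepatocyte sums are highest in HFD-KO replicate 2, at 1147, 17010 and 87320 CPM, and the macrophage sum is lowest there, at 413.9 CPM. Most of that hepatocyte sum is Alb, at 66104 CPM. Of the 6 hepatocyte markers, 3 are highest in HFD-KO replicate 1 and 3 in HFD-KO replicate 2.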

How the data were processed

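The authors extracted liver RNA with TRIzol, prepared directional MGIEasy libraries, sequenced paired reads of 100 bases on a DNBSEQ-G400RS, aligned them with the MGI Tech tool and used Partek Genomics Suite and GENCODE to count genes. The methods name mm10, while the deposited positions match GRCm39. Tool versions and the use of strand in counting are not given in the sources used here. The deposited counts are whole reads per gene without normalization, and only they were tested. The authors' TPM served to compare levels between genes. The authors' RPKM, and their CPM, a score on an adjusted library size, were not used.

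Tests on the counts used edgeR 4.0.16 under R 4.3.3 (filterByExpr, TMM, quasi-likelihood test, two-sided). The common biological coefficient of variation was 0.102. A standard error is the log2 fold change divided by the root of the F statistic. The procedure was tested on simulated data. Sequences were read with Python 3.11.15 and aligned with Biopython 1.88. Alternatives were DESeq2 1.42.0, other scaling, no filter, the replicate number as a block, summed copies, and each library left out. Groups and replicate numbers came from the sample titles. The iron genes, the lists and the tests were chosen with earlier results of these data known, and the search for iron-responsive elements was added after the values were seen. Genes named were all 10 iron genes, pathway genes with an unadjusted p under 0.05 or among the highest 2 by TPM of their role, and the highest 2 by CPM of each marker list. Hjv, Hfe, Id1, Smad6, Smad7, Lcn2, Erfe, Il6 and Crp were named after their values were seen. Of the erythroid list, 1 marker is not reported here and was left out of the sum.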

Additional observations from a re-analysis of the deposited data

How the results depend on the processing

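Leaving out each library in turn moved the results most. The iron genes called at an adjusted p under 0.05 by edgeR ranged from 0 to 3, all 3 of them without HFD-KO replicate 1, and those at an unadjusted p under 0.05 from 1 to 4. The pathway list ranged from 3 to 19 genes, with 14 higher and 5 lower without HFD-KO replicate 1 and 3 higher and 11 lower without HFD-KO replicate 2. Over all genes tested the counts ranged from 0 to 705 (adjusted) and from 462 to 2173 (unadjusted), so the choice of library moved the background as well: without HFD-KO replicate 1, 16.4% of all genes had an unadjusted p under 0.05. The log2 fold change ranged from -0.017 to 0.705 for Hamp, -0.66 to 0.49 for Hamp2 (0.03 without HFD-KO replicate 1), -0.27 to 0.23 for Bmp6 (-0.02 without HFD-WT replicate 1), -0.15 to 0.56 for Trf, -0.35 to 0.97 for Tfrc, -0.19 to 0.17 for Slc39a14 (-0.01 without HFD-WT replicate 2), -0.104 to 0.066 for Slc40a1 (0.03 without HFD-KO replicate 1), and -0.197 to 0.016 for Ftl1. Without either HFD-KO library, calls at an unadjusted p under 0.05 over all genes tested were more frequent than with all 4 libraries. Those calls over all genes were split almost evenly between higher and lower, unlike those of the pathway list. A single library left in a group was assumed to vary like the other group, so the splits of the pathway list are a description only.

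With the same replicate number as a block, 1 of the 10 iron genes, Hamp, had an unadjusted p under 0.05 by edgeR, beside 7.54% of all genes tested. Its log2 fold change was 0.34 (edgeR adjusted p = 0.619). All genes at an adjusted p under 0.05 went from 10 to 20. The labels describe no pairing, and the deviations of same-numbered libraries from their group means had a correlation of -0.0872 across genes, so the numbers were not taken as pairs. All genes at an adjusted p under 0.05 were 6 with the library size alone, 162 without the filter and 117 by DESeq2's Wald test, which gave 676 at an unadjusted p under 0.05. Without the filter the pathway list had 10 genes at an unadjusted p under 0.05 by edgeR, beside 8.59% of all genes in that fit. With the library size alone, 346 genes were higher and 894 lower at an unadjusted p under 0.05, beside 551 and 613, and genes shifted by a median of -0.046. Log2 fold changes near 0 changed sign: Bmp6 was -0.038 with the library size alone and -0.009 with the block, and Slc39a14 was -0.001 with DESeq2's size factors, -0.047 with the library size alone, -0.004 without the filter, -0.001 by DESeq2 and -0.01 with the block. Where values moved, the cause was not tested beyond the library left out. With 2 libraries per group, the 95% interval of the fold change was narrowest for Slc40a1 (0.85 to 1.15) and widest for Tfrc (0.768 to 2.44), and differences within such intervals were not detectable here.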

Other observations

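The genes whose pattern over the 4 libraries was most like that of Hamp were sought by distance. By the distance of log2 CPM centred on each gene's mean over the 4 libraries, the nearest of 11758 genes with a mean of at least 1 CPM were Dgke, Dixdc1 and Zfp108, at distances of 0.0884, 0.0966 and 0.112 on the log2 scale, beside a length of 0.644 for the Hamp pattern itself. The levels of Dixdc1, on chromosome 9, were 14.1 and 8.62 CPM in HFD-WT and 16.4 and 13.6 CPM in HFD-KO livers. Dgke, on chromosome 11, had 2.24 and 1.34 CPM against 2.28 and 1.88 CPM, and Zfp108, on chromosome 7, had 1.97 and 1.16 CPM against 1.94 and 1.80 CPM. In all 3 genes, as in Hamp, HFD-WT replicate 2 was the lowest library, which follows from picking them by their likeness to Hamp. With 4 libraries such a likeness is a description only.

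Of the 62 tested genes of the iron pathway list, 27 were highest in HFD-KO replicate 2, 43.5% beside 29.3% of all genes tested, and 22 were lowest in HFD-KO replicate 1, 35.5% beside 23.8%. For 13 of the 62, 21% beside 9.01% of all genes tested, both held, and Hp, Hpx, Lcn2 and Cp were among them. Of the 10 iron genes this was so for 3, Trf, Tfrc and Slc39a14.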
